A study of Mus musculus with 6 samples.

Results

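Hippocampal cultures hold a minority of inhibitory interneurons among excitatory neurons and glia, and 39 genes that mark these interneurons, build their transmitter or encode their peptides were followed in wild type (WT) and *Fmr1* KO cultures. The genes were listed by symbol, with earlier results of these data known. A symbol with more than 1 locus was read from the locus with the highest mean. All 39 were found among 47086 loci. Total RNA came from primary hippocampal neurons of C57BL/6 mice, cultured from newborn pups for 14 days in vitro and sequenced without treatment, with 3 WT and 3 *Fmr1* KO libraries. The 2 groups differ by the knockout of *Fmr1*, the gene for the RNA-binding protein FMRP that is lost in fragile X syndrome, and share strain, tissue and age in culture. The labels do not describe the knockout allele. The study's methods describe its mice in general as male knockouts and WT littermates, with data pooled over litters, but do not tie a sex, litter or culture batch to each library, so the p-values below measure the spread between these libraries, which may be technical.

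Most cortical and hippocampal interneurons are born in the ganglionic eminences of the ventral forebrain and migrate to their targets. *Dlx* homeobox factors are expressed in nearly all of their precursors. *Nkx2-1*, *Lhx6* and *Sox6* act in the lineage of the medial eminence, which gives somatostatin and parvalbumin cells among others. *Prox1* and *Sp8* are found in the lineage of the caudal eminence, which gives VIP and CCK cells and some neurogliaform cells. Mature interneurons make GABA with glutamate decarboxylases, load it with the vesicular transporter, and are told apart by peptides, calcium-binding proteins and surface molecules.

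Levels are FPKM, fragments scaled by transcript length and by library size, so that they can be compared between genes. Means are given ± SD of 3 libraries, log2 changes are *Fmr1* KO minus WT on log2(FPKM + 0.1), with their SE, and adjusted p-values are from limma with Benjamini-Hochberg adjustment over 13195 loci with a mean of at least 1 FPKM in either genotype. Of the 39 genes, 33 passed that minimum, in both genotypes. Libraries are called separated where every *Fmr1* KO library lies above, or every one below, every WT library. FPKM carry no count of fragments, so absolute depth is unknown and no counting interval can be given.

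*Fmr1* itself was 19, 19.5 and 19.7 FPKM in WT libraries and 23.1, 21.8 and 18.5 FPKM in *Fmr1* KO libraries. It was not lower in the *Fmr1* KO libraries, so its level is no check of the labels. Correlations of library profiles were 0.970 to 0.978 within a genotype and 0.962 to 0.977 between genotypes. The cultures carried markers of several cell types. Summed over 8 excitatory neuron markers, levels were 840 to 875 FPKM in WT and 877 to 947 FPKM in *Fmr1* KO libraries, over 7 astrocyte markers 1380 to 1650 and 1460 to 1610 FPKM, over 7 oligodendrocyte lineage markers 282 to 332 and 324 to 357 FPKM, and over 8 microglia markers 5.24 to 7.37 and 1.06 to 3.05 FPKM. The separation of the excitatory sums rests on *Camk2a*, at 480, 508 and 484 FPKM in WT and 513, 537 and 592 FPKM in *Fmr1* KO libraries. *Slc17a7* lay the other way, at 285, 290 and 285 FPKM in WT and 280, 269 and 279 FPKM in *Fmr1* KO libraries. The GABA genes were present beside the markers of these cell types, so the label of hippocampal neurons covers a mixed culture. In such bulk RNA, fewer cells of a type and less RNA per cell cannot be told apart.

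Promoters of the peptide and *Dlx* genes are shown because these are the groups whose tested members all lay on 1 side of zero. RefSeq gave a promoter for 30 of the 39 genes (GRCm38.p6). The motif TGACG, the core of the cAMP response element, was searched on both strands in the 250 bases before the start, as was TAATTA, a core of homeobox sites. The first was found in 5 of 7 peptide promoters (71.4%) and 2 of 3 *Dlx* promoters (66.7%) that had an entry. It was found in 10 of all 30 (33.3%) and in 17.8% of 27025 genes. The full palindrome TGACGTCA, which holds TGACG on each strand, was found in *Sst*, where it starts 48 bases before the transcription start, and in 1.6% of all genes. TAATTA was found in *Tac1*, *Cort* and *Dlx6os1* and in 4.91% of all genes. The last 150 bases before the start follow, 5′ to 3′ in the direction of the gene, with matches to either motif in capitals (TGACG reads CGTCA on the other strand). Matches are a description of these letters.

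Sst, chr16:23890845-23890994, minus strand: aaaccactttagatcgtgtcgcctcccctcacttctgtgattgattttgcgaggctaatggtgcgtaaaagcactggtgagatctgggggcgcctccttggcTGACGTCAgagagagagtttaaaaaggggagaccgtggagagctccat
Vip, chr10:5639068-5639217, plus strand: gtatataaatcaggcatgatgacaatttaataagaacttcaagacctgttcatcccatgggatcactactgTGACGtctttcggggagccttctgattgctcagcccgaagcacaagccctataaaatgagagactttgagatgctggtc
Cck, chr9:121495695-121495844, minus strand: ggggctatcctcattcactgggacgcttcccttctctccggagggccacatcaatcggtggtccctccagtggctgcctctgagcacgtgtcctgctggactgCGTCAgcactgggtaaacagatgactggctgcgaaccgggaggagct
Tac1, chr6:7554911-7555060, plus strand: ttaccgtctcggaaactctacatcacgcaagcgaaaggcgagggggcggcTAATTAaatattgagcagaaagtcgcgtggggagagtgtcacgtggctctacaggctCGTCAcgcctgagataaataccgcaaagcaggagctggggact
Cort, chr4:149126764-149126913, minus strand: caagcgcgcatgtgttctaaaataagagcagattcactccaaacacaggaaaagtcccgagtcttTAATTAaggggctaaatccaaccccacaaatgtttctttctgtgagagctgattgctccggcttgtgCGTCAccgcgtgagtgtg
Npy, chr6:49822560-49822709, plus strand: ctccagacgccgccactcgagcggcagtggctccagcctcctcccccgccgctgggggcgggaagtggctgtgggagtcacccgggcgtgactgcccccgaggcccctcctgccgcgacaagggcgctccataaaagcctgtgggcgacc
Pdyn, chr2:129699939-129700088, minus strand: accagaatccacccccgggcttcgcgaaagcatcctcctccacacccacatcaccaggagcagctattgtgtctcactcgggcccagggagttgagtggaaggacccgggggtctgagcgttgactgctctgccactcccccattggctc
Dlx1, chr2:71529295-71529444, plus strand: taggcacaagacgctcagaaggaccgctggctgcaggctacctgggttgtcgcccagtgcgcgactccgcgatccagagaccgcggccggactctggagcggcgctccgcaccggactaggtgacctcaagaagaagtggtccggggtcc
Dlx2, chr2:71546755-71546904, minus strand: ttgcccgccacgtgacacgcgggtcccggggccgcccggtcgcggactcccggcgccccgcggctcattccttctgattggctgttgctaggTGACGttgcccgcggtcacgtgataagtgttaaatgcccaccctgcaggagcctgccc
Dlx6os1, chr6:6869534-6869683, minus strand: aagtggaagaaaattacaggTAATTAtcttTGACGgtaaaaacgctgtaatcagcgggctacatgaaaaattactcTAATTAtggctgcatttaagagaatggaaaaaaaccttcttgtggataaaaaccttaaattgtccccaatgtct

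The windows of *Dlx1*, *Vip* and *Tac1* overlap the locus that the deposited table gives for the gene. No promoter entry was matched for *Dlx5*, *Dlx6*, *Maf*, *Crh*, *Calb1*, *Htr3a*, *Ndnf*, *Calb2* and *Penk*.

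The levels of the 39 genes covered a wide range in WT libraries. *Cck* (155 to 176 FPKM) and *Sst* (150 to 169 FPKM) stood at the top and overlapped with each other. *Gad1* and *Calb2* came next and also overlapped, at 88.2 to 92.8 and 78 to 91.5 FPKM. *Slc32a1* overlapped with *Npy*, and *Calb1*, *Nxph1*, *Gad2* and *Tac1* formed a run in which each overlapped with the next. The median WT mean of all tested loci was 10.1 FPKM, between the means of *Prox1* and *Nos1*. Peptide and GABA genes made up most of the top of the order, whereas the *Dlx* genes lay between 0.609 and 7.26 FPKM in WT libraries. *Pvalb*, *Sp8*, *Crh*, *Nkx2-1*, *Cnr2* and *Lhx8* were the 6 genes under the minimum of 1 FPKM, so the defining marker of parvalbumin cells was near the floor in these cultures.

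**Figure D1:**
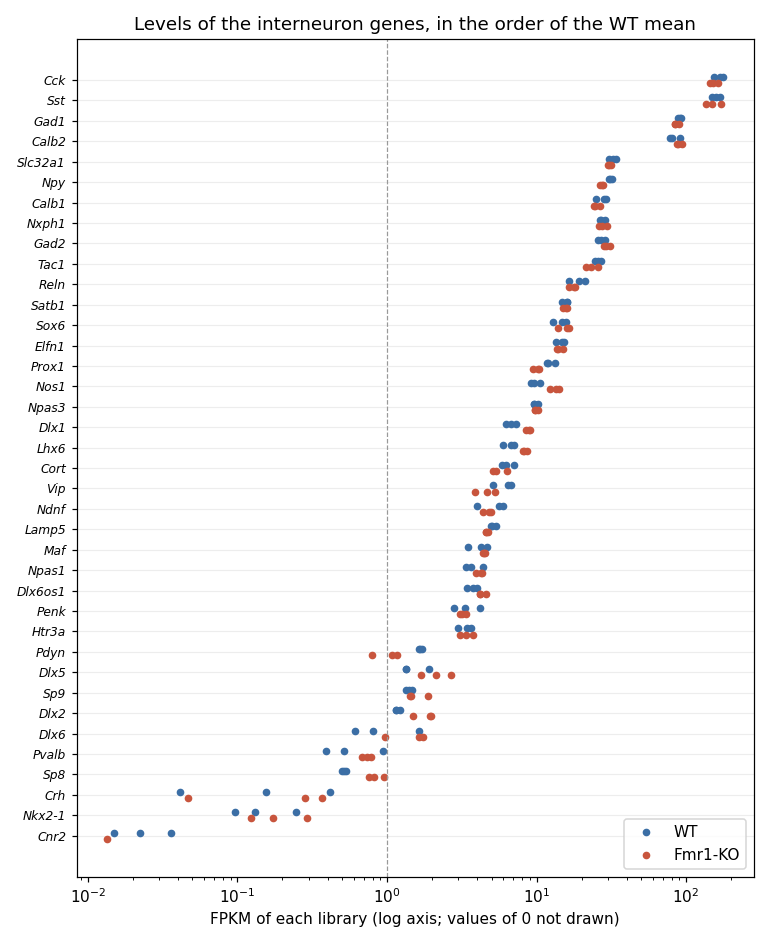
Level of each interneuron gene in each library, on a log axis in FPKM, with genes in the order of the WT mean, WT in blue and Fmr1-KO in red; the dashed line marks the minimum of 1 FPKM. Cck and Sst are at the top, Pvalb and the genes after it lie left of the line, and values of 0, which include all of Lhx8, are not drawn.

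Across the 33 tested genes, 16 were above zero and 17 below, and their median was -0.01 on the log2 scale against 0.005 for all tested loci. At an adjusted p below 0.05 in limma, 0 genes were higher and 0 lower in *Fmr1* KO, where 0.0909% and 0.174% of all tested loci were called. At an unadjusted p below 0.05, 6 were higher (18.2%, against 6.99% of all tested loci) and 4 were lower (12.1%, against 7.77%). The higher genes were *Dlx1*, *Dlx2*, *Dlx5*, *Dlx6os1*, *Lhx6* and *Nos1*, and the lower were *Prox1*, *Npy*, *Vip* and *Pdyn*. Libraries were separated for 5 genes with higher and 4 with lower *Fmr1* KO levels (15.2% and 12.1%, against 10.8% and 10.3% of all tested loci). No gene of the list therefore passed correction, and the differences described next are sizes with their errors. For any single gene, 0.1 is the smallest p that an exact permutation test of 3 against 3 libraries allows.

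**Figure D2:**
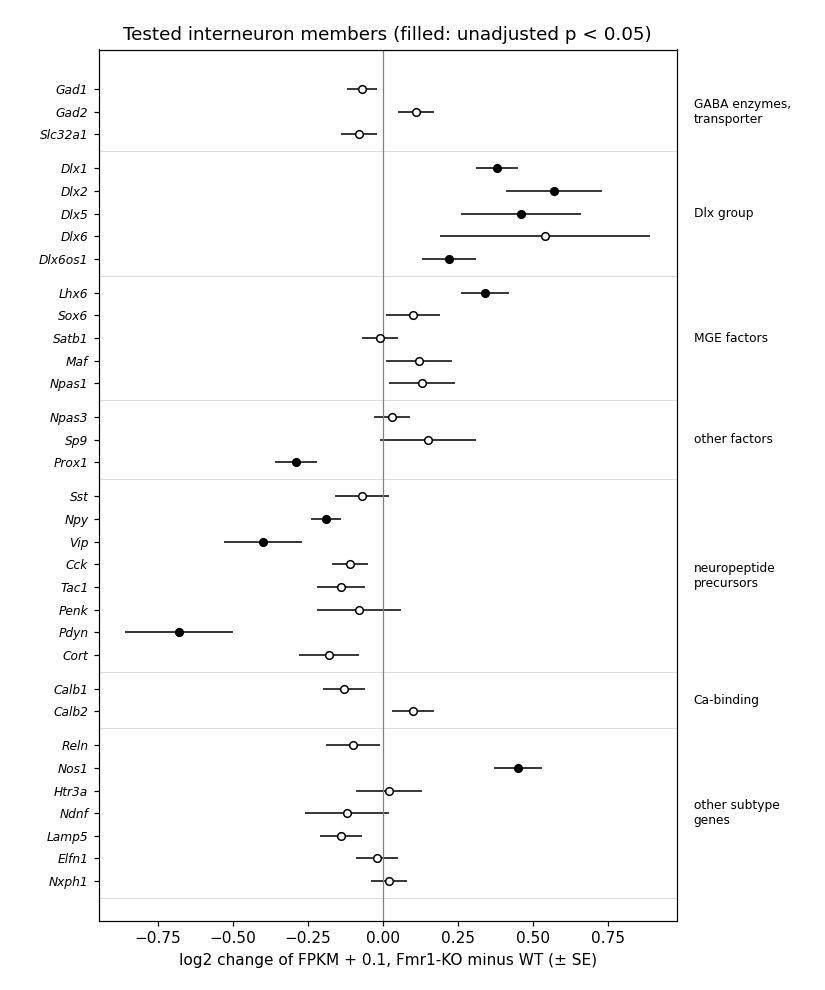
Log2 change (Fmr1-KO minus WT, on log2(FPKM + 0.1)) of the 33 tested interneuron genes with the SE from limma, grouped by role, where filled circles mark an unadjusted p below 0.05 and MGE stands for medial ganglionic eminence. The 5 Dlx genes lie right of zero and the 8 tested peptide precursors left of it, while none passed an adjusted p of 0.05.

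The genes of GABA synthesis and loading differed by 0.11 or less on the log2 scale. *Gad1* (chr2:70489940-70602014), which encodes the larger glutamate decarboxylase, was 92.8, 90.9 and 88.2 FPKM in WT libraries and 90.3, 84.5 and 83.9 FPKM in *Fmr1* KO libraries (90.6 ± 2.32 against 86.2 ± 3.57). *Gad2* (chr2:22621422-22693877), which encodes the decarboxylase found mainly at terminals, was 25.9, 28.7 and 27 FPKM in WT and 31, 29.1 and 28.2 FPKM in *Fmr1* KO (27.2 ± 1.4 against 29.4 ± 1.46). *Slc32a1* (chr2:158610758-158615747), the vesicular GABA transporter, was 30.4, 32.7 and 34.1 FPKM in WT and 31.4, 30.5 and 30 FPKM in *Fmr1* KO (32.4 ± 1.87 against 30.6 ± 0.742). The genotypes overlapped for all 3 genes. Log2 changes were -0.07 ± 0.05 (SE; limma adjusted p = 0.529), 0.11 ± 0.06 (adjusted p = 0.422) and -0.08 ± 0.06 (adjusted p = 0.556) in this order.

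In *Fmr1* KO libraries the mean of each of the 5 *Dlx* genes was higher (median log2 change 0.46), where 51.7% of all tested loci were above zero. Of these genes, 4 had an unadjusted p below 0.05, against 6.99% of all tested loci, and this number was 2 without WT library 3, without *Fmr1* KO library 2 or without *Fmr1* KO library 3. Their summed level was 13.4 to 14.9 FPKM in WT and 18 to 19.4 FPKM in *Fmr1* KO libraries. *Dlx1* (chr2:71528113-71537891), a homeobox factor of migrating and mature interneurons, was 6.78, 7.26 and 6.26 FPKM in WT and 8.46, 8.97 and 9.03 FPKM in *Fmr1* KO libraries. The 3 *Fmr1* KO libraries lay above all WT libraries, at 1.3 times the WT mean (8.82 ± 0.313 against 6.77 ± 0.503). The log2 change was 0.38 ± 0.07 (limma adjusted p = 0.0766). *Dlx2* (chr2:71543408-71546754), its neighbour on the same chromosome with 5516 bases between both loci, acts earlier in precursors. It was 1.14, 1.15 and 1.22 FPKM in WT and 1.98, 1.93 and 1.49 FPKM in *Fmr1* KO libraries, which did not overlap (1.17 ± 0.0461 against 1.8 ± 0.271). Its log2 change was 0.57 ± 0.16 (limma adjusted p = 0.173).

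The second *Dlx* pair showed wider spread. *Dlx5* (chr6:6877801-6882068), a later homeobox factor of the same lineage, was 1.91, 1.34 and 1.35 FPKM in WT and 1.69, 2.13 and 2.66 FPKM in *Fmr1* KO libraries (1.53 ± 0.324 against 2.16 ± 0.483). WT library 1 lay inside the *Fmr1* KO range, and the log2 change was 0.46 ± 0.2 (limma adjusted p = 0.332). *Dlx6* (chr6:6820546-6869533) was 1.63, 0.609 and 0.81 FPKM in WT and 1.63, 1.73 and 0.976 FPKM in *Fmr1* KO libraries (1.02 ± 0.539 against 1.44 ± 0.408). This gene had the largest SE of the group, with a log2 change of 0.54 ± 0.35 (limma adjusted p = 0.515). *Dlx6os1*, the antisense RNA also known as Evf2, has the same locus bounds as *Dlx6* in the deposited table, and no source used here gives the strand setting, so reads of the pair cannot be told apart. It was 3.41, 3.99 and 3.74 FPKM in WT and 4.19, 4.61 and 4.18 FPKM in *Fmr1* KO libraries, which were separated (3.71 ± 0.289 against 4.33 ± 0.248). Its log2 change was 0.22 ± 0.09 (limma adjusted p = 0.322).

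Factors of medial eminence cells were mixed, with 4 of 5 tested genes above zero and a median of 0.12. Of all tested loci, 51.7% were above zero, with a median of 0.005. *Lhx6* (chr2:36081950-36105998), the LIM homeobox factor that somatostatin and parvalbumin cells retain, was 5.94, 6.7 and 7.11 FPKM in WT and 8.29, 8.12 and 8.61 FPKM in *Fmr1* KO libraries. All *Fmr1* KO libraries were above all WT libraries, at 1.27 times the WT mean (8.34 ± 0.249 against 6.58 ± 0.591). The log2 change was 0.34 ± 0.08 (limma adjusted p = 0.118). The other 4 factors differed little. *Sox6* (chr7:115470872-116041138), which acts after *Lhx6*, ranged from 12.9 to 16.6 FPKM over all 6 libraries with a log2 change of 0.1. *Satb1* (chr17:51736187-51833484), a chromatin organiser needed for somatostatin cell maturation, ranged from 14.8 to 16.1 FPKM with a change of -0.01. *Maf* (chr8:115703253-115706894), a bZIP factor of the same lineage, had a range of 3.46 to 4.68 FPKM and a change of 0.12. *Npas1* (chr7:16455718-16476816), a bHLH-PAS repressor, had a range of 3.4 to 4.4 FPKM and a change of 0.13. WT and *Fmr1* KO libraries overlapped for each of these 4.

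**Figure D3:**
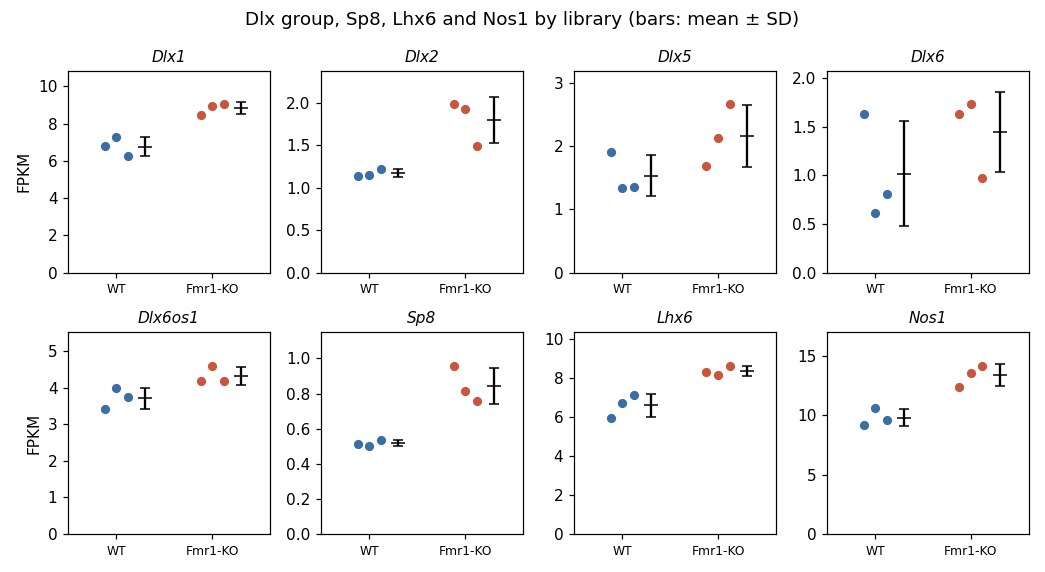
FPKM by library for the Dlx genes, Sp8, Lhx6 and Nos1, with WT in blue, Fmr1-KO in red, and bars for the mean ± SD of 3 libraries. The Fmr1-KO libraries lie above all WT libraries for Dlx1, Dlx2, Dlx6os1, Lhx6, Nos1 and Sp8, and overlap with them for Dlx5 and Dlx6. Sp8 is under the minimum of 1 FPKM and was not tested.

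Among the other transcription factors, *Prox1* (chr1:190118035-190217279), which caudal eminence interneurons and dentate granule cells both express, was lower. It was 11.8, 13.3 and 11.9 FPKM in WT and 10.2, 9.49 and 10.4 FPKM in *Fmr1* KO libraries, with no overlap (12.3 ± 0.816 against 10 ± 0.482, or 0.815 of the WT mean). The log2 change was -0.29 ± 0.07 (limma adjusted p = 0.13). Of 4 dentate granule markers, 3 were tested and all 3 were below zero, 2 of them at an unadjusted p below 0.05 (against 7.77% of all tested loci), and the summed level of the 4 was 14.9 to 17.1 FPKM in WT against 13.1 to 14.5 FPKM in *Fmr1* KO. *C1ql2* had a log2 change of -0.45 (adjusted p = 0.17), *Dsp* of -0.5 (adjusted p = 0.2) and *Dock10* of -0.02. Their part in the *Prox1* difference was not tested. *Npas3* (chr12:53248003-54072175), a bHLH-PAS factor, ranged from 9.56 to 10.3 FPKM with a log2 change of 0.03. *Sp9* (chr2:73271926-73275771), a zinc finger factor of interneuron precursors, was at 1.35 to 1.47 FPKM in WT and at 1.88, 1.42 and 1.44 FPKM in *Fmr1* KO libraries, for a change of 0.15 ± 0.16.

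Each of the 8 tested peptide precursors had a lower mean log2 level in *Fmr1* KO, with a median change of -0.16, where 48.3% of all tested loci were below zero. *Npy*, *Vip* and *Pdyn* were the 3 with an unadjusted p below 0.05, against 7.77% of all tested loci. This number was 6 without *Fmr1* KO library 1, and 2 without WT library 2 or without *Fmr1* KO library 3. Among the most abundant, *Sst* (chr16:23889581-23890844), the precursor of somatostatin, was 169, 159 and 150 FPKM in WT and 172, 149 and 136 FPKM in *Fmr1* KO libraries. *Cck* (chr9:121489824-121495694), the precursor of cholecystokinin, which excitatory neurons also make, was 169, 176 and 155 FPKM in WT and 164, 145 and 152 FPKM in *Fmr1* KO. Both overlapped, with log2 changes of -0.07 ± 0.09 (limma adjusted p = 0.752) and -0.11 ± 0.06 (adjusted p = 0.457).

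*Npy* (chr6:49822710-49829507), the precursor of neuropeptide Y, had the smallest SE of the peptides. It was 31, 30.7 and 32.1 FPKM in WT and 27.8, 26.7 and 27.3 FPKM in *Fmr1* KO libraries. The genotypes did not overlap, and the *Fmr1* KO mean was 0.873 of the WT mean (27.3 ± 0.53 against 31.2 ± 0.723). Its log2 change was -0.19 ± 0.05 (limma adjusted p = 0.131).

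*Vip* (chr10:5639193-5647617), the precursor of vasoactive intestinal peptide, was 6.46, 6.71 and 5.13 FPKM in WT and 5.25, 4.66 and 3.9 FPKM in *Fmr1* KO libraries. WT library 3 was just below *Fmr1* KO library 1, so the genotypes overlapped (6.1 ± 0.847 against 4.6 ± 0.677). The log2 change was -0.4 ± 0.13 (limma adjusted p = 0.231). *Pdyn* (chr2:129686549-129699938), the precursor of dynorphin, was 1.71, 1.63 and 1.66 FPKM in WT and 1.17, 0.797 and 1.08 FPKM in *Fmr1* KO libraries. It had the largest difference of the peptides, at 0.609 of the WT mean without overlap (1.01 ± 0.193 against 1.67 ± 0.0382). The log2 change was -0.68 ± 0.18 (limma adjusted p = 0.157). *Pdyn* is also made by dentate granule cells, whose markers are given above beside *Prox1*, and their part in the *Pdyn* difference was not tested.

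The remaining peptide genes overlapped between genotypes. *Tac1* (chr6:7554885-7562978), the precursor of substance P, was 27, 25.6 and 24.5 FPKM in WT and 25.7, 21.3 and 23.1 FPKM in *Fmr1* KO libraries (log2 change -0.14 ± 0.08, limma adjusted p = 0.429). *Cort* (chr4:149125034-149126763), the precursor of cortistatin, was 7.04, 5.89 and 6.24 FPKM in WT and 5.33, 6.39 and 5.15 FPKM in *Fmr1* KO (-0.18 ± 0.1, adjusted p = 0.454). A further locus of *Cort* on an unplaced scaffold was listed at 0 in all libraries. *Penk* (chr4:4133530-4138964), the precursor of enkephalins, was 2.81, 4.18 and 3.32 FPKM in WT and 3.4, 3.07 and 3.15 FPKM in *Fmr1* KO (-0.08 ± 0.14, adjusted p = 0.846). *Crh* (chr3:19693401-19707354), the precursor of corticotropin-releasing hormone, was under the minimum, at 0.414, 0.155 and 0.0412 FPKM in WT and 0.368, 0.282 and 0.0465 FPKM in *Fmr1* KO. Its libraries varied more within a genotype than between genotypes.

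**Figure D4:**
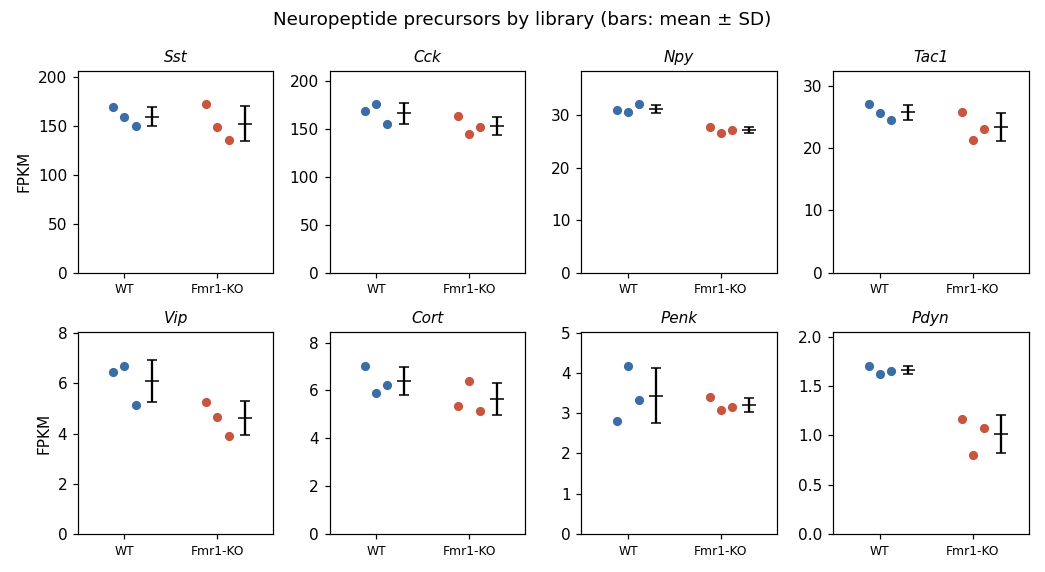
FPKM by library of the 8 tested peptide precursors, with WT in blue, Fmr1-KO in red, bars for the mean ± SD of 3 libraries and each vertical axis starting at 0. Npy and Pdyn are the genes for which all Fmr1-KO libraries lie below all WT libraries.

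Receptors for the ligands of these neurons give the other side of the signal. Of 20 receptor genes, 13 were tested, 5 above and 8 below zero, and 0 and 4 of them respectively had an unadjusted p below 0.05. The share below zero was 61.5%, against 48.3% of all tested loci, and the share lower at this p was 30.8%, against 7.77%. With a minimum of 5 FPKM, 6 were tested and 1 was lower at this p. None passed an adjusted p of 0.05 in limma. *Cckbr*, the brain receptor for cholecystokinin, was 4.69, 4.77 and 4.2 FPKM in WT and 3.3, 3.21 and 2.74 FPKM in *Fmr1* KO libraries, without overlap (log2 change -0.55 ± 0.1, limma adjusted p = 0.0753). *Crhr1*, a receptor for corticotropin-releasing hormone, had a change of -0.3 (adjusted p = 0.212), and the somatostatin receptor *Sstr3* of -0.22 (adjusted p = 0.26).

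The calcium-binding proteins were close between genotypes. *Calb1* (chr4:15881264-15906709), calbindin, ranged over 25 to 29.3 FPKM in WT and was 26.6, 24.2 and 24.8 FPKM in *Fmr1* KO, with a log2 change of -0.13 ± 0.07 (limma adjusted p = 0.453). *Calb2* (chr8:110142538-110168206), calretinin, ranged over 78 to 91.5 FPKM in WT and was 93.8, 87.1 and 87.8 FPKM in *Fmr1* KO, with a change of 0.1 ± 0.07 (adjusted p = 0.507). *Pvalb* (chr15:78191117-78206351), parvalbumin, was 0.934, 0.514 and 0.39 FPKM in WT and 0.785, 0.74 and 0.681 FPKM in *Fmr1* KO and was not tested.

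Of 8 further subtype genes, *Nos1* (chr5:117780987-117958840), the neuronal nitric oxide synthase of neurogliaform and *Npy*-positive cells, had the smallest p among the 33 tested genes. It was 9.21, 10.6 and 9.6 FPKM in WT and 12.4, 13.6 and 14.2 FPKM in *Fmr1* KO libraries. Every *Fmr1* KO library was above every WT library, at 1.37 times the WT mean (13.4 ± 0.951 against 9.81 ± 0.734). The log2 change was 0.45 ± 0.08 (limma adjusted p = 0.0654), and with a minimum of 5 FPKM, which leaves 9493 loci to adjust over, the adjusted p was 0.0439. Over 13 other settings, this one included, the limma adjusted p was 0.0439 to 0.227 and was below 0.05 in 2 of them. *Lamp5* (chr2:136052023-136069917), a marker of neurogliaform cells, was 5.07, 5.36 and 4.98 FPKM in WT and 4.77, 4.59 and 4.56 FPKM in *Fmr1* KO, separated but with a change of -0.14 ± 0.07 (limma adjusted p = 0.41). *Ndnf* (chr6:65671611-65712323), another neurogliaform gene, overlapped, at 3.99 to 5.96 FPKM in WT and 4.39, 4.79 and 4.93 FPKM in *Fmr1* KO (-0.12, adjusted p = 0.75). Genes of the neurogliaform type thus lay on both sides of zero.

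The other subtype genes overlapped between genotypes. *Reln* (chr5:21884454-22344705), the secreted protein reelin, ranged from 16.4 to 21 FPKM over all libraries with a log2 change of -0.1. *Htr3a* (chr9:48896230-48911149), a serotonin receptor channel of caudal eminence cells, ranged from 2.97 to 3.74 FPKM with a change of 0.02. *Elfn1* (chr5:139907641-139974725), a synaptic adhesion protein of somatostatin cells, ranged from 13.5 to 15.2 FPKM with a change of -0.02, and *Nxph1* (chr6:8947788-9259863), a neurexin ligand, from 26 to 29.7 FPKM with a change of 0.02.

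The 6 genes under the minimum were not tested. *Sp8* (chr12:118845353-118852578), a zinc finger factor of caudal eminence cells, was 0.513, 0.502 and 0.535 FPKM in WT and 0.959, 0.814 and 0.758 FPKM in *Fmr1* KO libraries. These were separated, at 1.63 times the WT mean (0.844 ± 0.103 against 0.516 ± 0.0167), and in a fit with no minimum the log2 change was 0.61 ± 0.18 (limma adjusted p = 0.371). *Nkx2-1* (chr12:56531935-56536908), the founding factor of the medial eminence, which neurons bound for the cortex switch off, was 0.246, 0.0968 and 0.131 FPKM in WT and 0.291, 0.124 and 0.172 FPKM in *Fmr1* KO. *Lhx8* (chr3:154306288-154330560), a factor of forebrain cholinergic neurons, was listed at 0 in all libraries. *Cnr2* (chr4:135895189-135920219), a cannabinoid receptor, was 0.015, 0.0224 and 0.0358 FPKM in WT and 0, 0 and 0.0135 FPKM in *Fmr1* KO libraries, separated at levels near zero. Its log2 change in the fit with no minimum was -0.25 ± 0.14 (limma adjusted p = 0.612). *Pvalb* and *Crh*, described above, complete the 6.

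Other genes of interneurons, 24 that are not among the 39, were read for context, from a list that was also written with earlier results of these data known. Of 23 tested, 15 were above and 8 below zero, with 4 (17.4%) and 1 (4.35%) at an unadjusted p below 0.05. Of all tested loci, 51.7% and 48.3% lay above and below zero, with 6.99% and 7.77% at this p. Without WT library 2 the 4 became 7, and the 1 became 2 without WT library 3, without *Fmr1* KO library 2 or with the replicate block. *Crhbp*, which encodes a secreted protein that binds corticotropin-releasing hormone and is made by somatostatin cells, was the 1 gene of these with an adjusted p below 0.05. It was 19.1, 19.9 and 18.8 FPKM in WT and 14.1, 12.5 and 11.9 FPKM in *Fmr1* KO libraries, and fell to 0.665 of the WT mean without overlap (log2 change -0.59 ± 0.07, limma adjusted p = 0.0175). The adjusted p was 0.00926 to 0.0843 over 13 other settings and was below 0.05 in 6 of them. Leaving out any 1 library other than *Fmr1* KO library 1 took it to 0.0525 or above.

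Cells that could share these markers were also counted. Of 4 Cajal-Retzius markers, which bear on *Reln* and *Calb2*, 1 was tested (*Nhlh2*, log2 change 0.14), and their sums were 1.86 to 2.06 FPKM in WT and 1.76 to 1.96 FPKM in *Fmr1* KO. Of 7 markers of striatal projection neurons, which also express *Dlx* genes, *Penk*, *Tac1* and *Pdyn*, 4 were tested, with 2 above and 2 below zero. *Ppp1r1b* had a change of 0.27 (limma adjusted p = 0.218), *Adora2a* of -0.27 (adjusted p = 0.26) and *Drd1* of 0.04, *Isl1* was listed at 0 in all libraries, and the sums were 18.1 to 19.4 FPKM in WT and 19.6 to 20.3 FPKM in *Fmr1* KO. The separation of these sums rests on *Ppp1r1b*: over the other 6 markers, a sum added after the values were seen, they were 10.7 to 11.4 FPKM in WT and 9.96 to 10.9 FPKM in *Fmr1* KO and overlapped. Their part in the *Dlx* or peptide differences was not tested. Excitatory neuron markers had 6 of 8 above zero (*Camk2a* 0.16 and *Slc17a7* -0.06), and astrocyte markers 4 of 7 (*Gja1* -0.19, *Gfap* 0.14 and *Sox9* -0.09). Oligodendrocyte lineage markers had 4 of 6 above zero (*Olig2* 0.25 with an adjusted p of 0.133, and *Olig1* 0.14). All 3 tested microglia markers were lower (*C1qb* -2.33, *C1qc* -1.83 and *C1qa* -2.03, with adjusted p of 0.117, 0.15 and 0.242), and *Aif1* was listed at 0. Whether these cell types bear on the interneuron genes was not tested.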

How the data were processed

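Total RNA of 6 libraries, 3 WT and 3 *Fmr1* KO, was measured by RNA-seq. Per the labels and the study's methods, the authors clipped and trimmed reads, mapped them to GRCm38 with TopHat2, built loci with Cufflinks and compared groups with Cuffdiff. No source used here gives tool versions, annotation or strand setting. Deposited values are FPKM for each library and group, plus the authors' own comparison (a log2 fold change, p-value and q-value), which was not used. Library FPKM sums were 1803680 to 2303080.

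Replicates carry numbers in the labels. Correlations of same-numbered deviations were 0.243, 0.058 and 0.08. WT library 1 had -0.122 and -0.131 with *Fmr1* KO libraries 2 and 3. *Fmr1* KO library 1 had -0.119 and -0.152 with WT libraries 2 and 3. WT libraries 2 and 3 had 0.058 to 0.08 with *Fmr1* KO libraries 2 and 3, whatever their numbers. Deviations of a locus cancel within a genotype, so these correlations are tied to one another and are not separate observations. With 0.243 between the 2 libraries numbered 1, structure shared by them is possible. The labels do not say that numbers pair libraries, so the replicate block was kept as an alternative. From FPKM, R 4.3.3 and limma 3.58.1 (mean-variance trend, genotype as the only term) tested log2(FPKM + 0.1) for loci with a mean of at least 1 FPKM in either genotype. The pipeline was checked on simulated data. Low genes have changes understated by the pseudocount of 0.1.

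Every gene of the list is named with its locus, level and direction. Library values and tests are given for those at an unadjusted p below 0.05 or with separated libraries, and library values also for peptide and GABA genes. Of the comparison lists, genes at an adjusted p below 0.05, or else the 3 with the smallest p, are named. Some single genes are not reported here. The members and lists were chosen with earlier results of these data known. Alternatives were pseudocounts of 1 and 0.01, no minimum and a minimum of 5 FPKM, centring, no trend, the replicate block and leaving out each library. Coordinates are those of the deposited table with 1 added to the start, since 21 starts then equal RefSeq starts.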

Additional observations from a re-analysis of the deposited data

How the results depend on the processing

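Of 706 single-gene values recomputed under 13 alternatives, 679 kept their direction and side of the threshold, 18 changed sign, 2 passed the threshold and 7 lost it. The *Dlx* genes that were tested were all above zero in 13 of 13 alternatives, and the tested peptide precursors all below zero in 10 of 13. With a minimum of 5 FPKM, 1 *Dlx* gene (*Dlx1*) and 6 peptide precursors were tested, so that setting says little about the *Dlx* group. The peptide exceptions were *Sst* at 0.01 without *Fmr1* KO library 3, *Penk* at 0.07 without WT library 2, and *Crh* at 0.17, tested only with no minimum. Genes higher at an adjusted p below 0.05 numbered 1 (*Nos1*) with a minimum of 5 FPKM and 1 (*Nos1*, adjusted p = 0.0441) with the replicate block, against 0. Over the alternatives the adjusted p was 0.0439 to 0.227 for *Nos1* and 0.0666 to 0.275 for *Dlx1*. With a minimum of 5 FPKM, 23 genes were tested, of which 3 were higher at an unadjusted p below 0.05, 3 were separated and higher, and the median change was -0.072, against -0.007 as reported and 0.019 with no minimum. Leaving out each library in turn, 3 to 7 were lower at an unadjusted p below 0.05 (7 without WT library 1 and without *Fmr1* KO library 1), 5 to 10 were separated and higher (10 without WT library 1), and 4 to 10 were separated and lower (8 without WT library 1 or 3, 10 without *Fmr1* KO library 1); fewer libraries make separation more frequent by construction.

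Sign changes came from leaving out libraries, with ranges of -0.04 to 0.02 for *Satb1*, -0.16 to 0.01 for *Sst*, -0.21 to 0.07 for *Penk*, -0.07 to 0.09 for *Htr3a*, -0.07 to 0.02 for *Elfn1*, -0.03 to 0.07 for *Nxph1*, -0.07 to 0.02 for *Dock10* and -0.02 to 0.15 for *Drd1*. The cause was not tested. *Crhbp* was -0.59 with an adjusted p of 0.0832 with no minimum and 0.06 without the trend. Over all loci, 12 were higher and 23 lower at an adjusted p below 0.05, against 20 and 34 with a minimum of 5 FPKM, 6 and 9 with no minimum, 29 and 36 with the replicate block, 7 and 14 without the trend, 10 and 23 or 8 and 22 with pseudocounts of 1 or 0.01, and 4 to 8 and 10 to 14 when a library was left out. The same-numbered libraries share only a number as far as the labels say. The spread of 3 libraries and the unknown depth limit all values, most of all those below 1 FPKM.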

Other observations

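The ratio of *Gad2* to *Gad1* FPKM within a library was read after the values had been seen and is given without a test. It was 0.279, 0.316 and 0.307 in WT libraries (0.3 ± 0.0192), and the *Fmr1* KO libraries had 0.343, 0.345 and 0.336 (0.341 ± 0.00482). The ratios did not overlap, although neither gene was separated alone. How often ratios of other gene pairs separate was not examined.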
